A study of Homo sapiens with 3 samples.

Results

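The genes described here are the topoisomerases and the gene products that colorectal chemotherapy acts on or is handled by, in SW48 cells, an established human colorectal cancer line. There are 10 of them: TOP1, TOP2A, TOP2B, TOP3A, TOP3B, TYMS, DPYD, UMPS, ERCC1 and TDP1. They were found as the probes whose platform annotation gives 1 gene symbol and whose symbol is one of the 10, which gave 14 of 24658 such probes. The set was put together by function but was selected on measured values as well, since the lower TOP1 intensity in one library was already known, so its values are given as a description.

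Expression was measured on 1-colour Cy5 arrays in 3 samples, 1 in each of 3 groups. The first carried a plasmid for overexpression of DDX3, an RNA helicase, and a further plasmid that knocks down YAP1, a transcriptional coactivator of the Hippo pathway, the second carried the DDX3 plasmid alone, and the third the empty vector pcDNA3.1. All were stable SW48 cells after 4 weeks under G418, and no chemotherapy agent is named in the labels. Whether a group is 1 clone or a pool is not stated in the labels, and each sample combines 2 technical replicates whose separate values were not analysed here.

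With 1 sample in each group there is no spread between samples, no test was made and no difference has a replicate check. So few arrays limit the precision of each value. In bulk RNA, fewer cells with a transcript and less of it in each cell cannot be told apart. The probes of DDX3X and YAP1 did not bear out the labels, though whether they lie inside the expressed or targeted sequence is not known here. The DDX3X probes gave log2 differences of -1.17 and 0.23 for DDX3 minus vector, and the YAP1 probe gave 0.03 for DDX3+YAPsi minus DDX3, so these libraries are named by their labels throughout. Of 10 colorectal epithelial markers on the array, CDH1, CDH17, CDX1, CDX2, EPCAM, GPA33, KRT19 and KRT20 lay above the floor in every library. No endothelial marker lay above it. Of 6 fibroblast markers COL1A1 lay above it, and of 6 leukocyte markers CD14, CD3D and CD68 did. The floor is the median of each array, and 12940 of 24658 probes with 1 symbol reached it in every library. Such marker counts are therefore a weak check of the tissue.

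DNA topoisomerases relieve the twisting of DNA by cutting it and sealing it again while bound to its end through a tyrosine. Type I enzymes cut a single strand and type II enzymes cut both. Irinotecan, through its metabolite SN-38, traps TOP1 on DNA, and etoposide and doxorubicin trap the type II enzymes. Fluorouracil acts largely by blocking thymidylate synthase, and oxaliplatin leaves platinum adducts that nucleotide excision repair removes. The level of an enzyme that a drug traps, blocks or is degraded by is therefore often discussed as a marker of response in colorectal cancer.

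Intensities below were scaled so that the 75th percentile of each array met a common value, and a log2 difference of 1 is a 2-fold difference. A probe counted as measured in a library at or above the median of its array, called the floor, at a scaled intensity of 411 in the DDX3+YAPsi-labelled library, 382 in the DDX3-labelled library and 378 in the vector library. Of the 14 member probes 11 reached the floor in all libraries, and they stand for 8 of the 10 genes. Over the whole array 12940 of 24658 probes with 1 symbol reached it in all libraries. TOP3B and both DPYD probes lay below the floor in every library. Because probes bind with different strength, the intensity of one probe is not set against that of another.

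TOP1, the nuclear type IB topoisomerase and the target of irinotecan, had the largest difference of the members. Its single-symbol probe had scaled intensities of 502 in the DDX3+YAPsi-labelled library, 654 in the DDX3-labelled library and 1081 in the vector library. The 2 plasmid libraries were thus both below the vector library, and the DDX3+YAPsi-labelled library was the lowest. TOP1 was 2.15-fold lower in the DDX3+YAPsi-labelled library than in the vector library (log2 difference -1.11), the 23rd lowest of 13098 measured probes. It differed by -0.38 for DDX3+YAPsi minus DDX3 and by -0.73 for DDX3 minus vector, and these parts add up to the first because the comparisons share libraries. With no scaling the parts were nearly equal, at -0.93 for DDX3+YAPsi minus DDX3 and -0.92 for DDX3 minus vector. With a common median, quantile normalization or loess, DDX3 minus vector was the greater part, at -0.74, -0.71 and -0.72. Beside these, DDX3+YAPsi minus DDX3 stood at -0.49, -0.48 and -0.48.

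TOP1 was the 1 member probe of 11 past 2-fold between the DDX3+YAPsi-labelled library and the vector library. Over all measured probes with 1 symbol, 0.779% were past 2-fold either way in that comparison and 0.382% were at least 2-fold lower. No member probe was past 2-fold for DDX3+YAPsi minus DDX3, where the share over all measured probes was 0.442%, or for DDX3 minus vector, where it was 0.494%. The TOP1 value was among those that selected the set, so nothing is read from its count. With the floor at the 75th percentile of each array TOP1 was not measured and 0 member probes were past 2-fold. Its signal lay near the floor in the DDX3+YAPsi-labelled library. Among 2478 probes within 0.5 (log2) of its mean level, 1.53% were past 2-fold for DDX3+YAPsi minus vector.

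**Figure D1:**
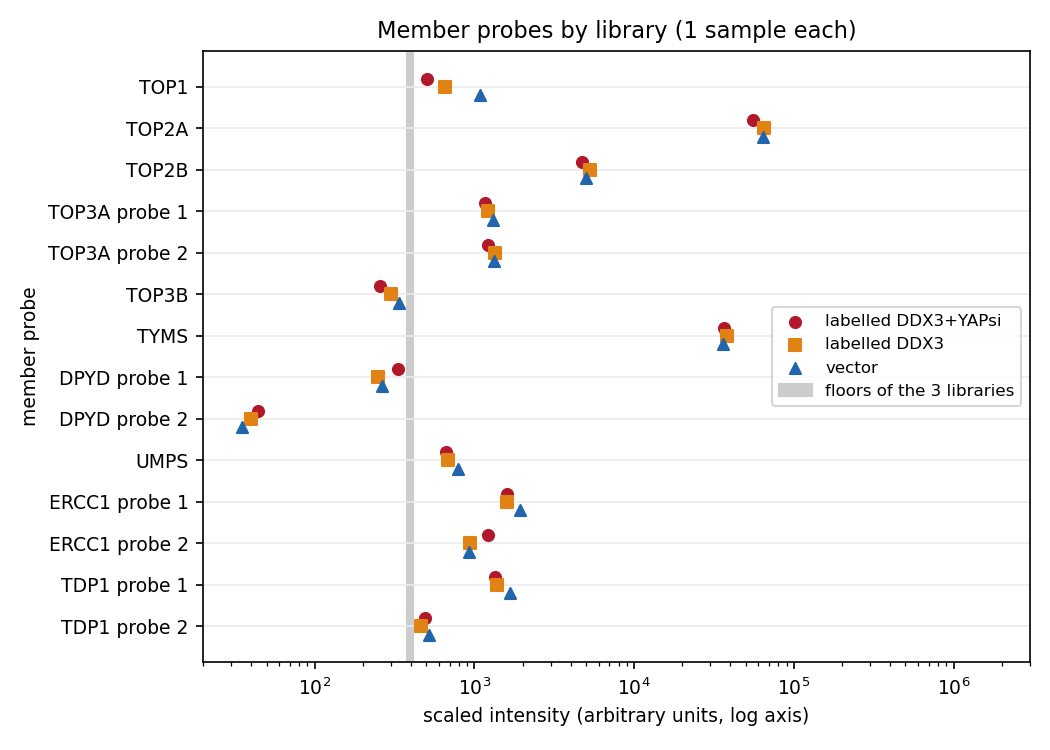
Scaled intensity (arbitrary units, log axis) of each of the 14 member probes, with 1 point for each of 3 libraries and the range of the floors in grey. TOP1 lies at 502 in the DDX3+YAPsi-labelled library, against 1081 in the vector library, while TOP3B and both DPYD probes lie left of the floor in every library.

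A second probe on the array also listed TOP1, but together with its pseudogenes TOP1P1 and TOP1P2, so it is not a member. It had scaled intensities of 27776 in the DDX3+YAPsi-labelled library, 36399 in the DDX3-labelled library and 30603 in the vector library. In this probe the DDX3-labelled library was the highest and the DDX3+YAPsi-labelled library the lowest. Its log2 differences were -0.14 for DDX3+YAPsi minus vector, -0.39 for DDX3+YAPsi minus DDX3 and 0.25 for DDX3 minus vector. The 2 probes that list TOP1 therefore stood 0.97 apart for DDX3+YAPsi minus vector and 0.98 apart for DDX3 minus vector, and 0.0094 apart for DDX3+YAPsi minus DDX3. Across 2059 genes with 2 measured probes, the median gap between probes was 0.26 for DDX3+YAPsi minus vector and 0.23 for DDX3 minus vector. A gap at least as large as that of TOP1 was found in 2.43% and 1.21% of these genes in those comparisons. For DDX3+YAPsi minus DDX3 the median gap was 0.20, and 97.8% of these genes had a gap at least as large as that of TOP1. What the probes bind was not tested, since the sources used here give neither their sequences nor their positions.

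The same check was made for every probe past 2-fold. Of the 50 probes at least 2-fold lower in the DDX3+YAPsi-labelled library than in the vector library, 31 belonged to a gene with another measured probe, against 37.0% of all measured probes. For 0 of these 31 probes was the mean of the other measured probes of the gene also at least 2-fold lower. That mean was below 0 for 21 of them, and the median of these means was -0.13. For the 52 probes at least 2-fold higher, 12 had another measured probe and 0 of the 12 were past 2-fold with it.

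**Figure D2:**
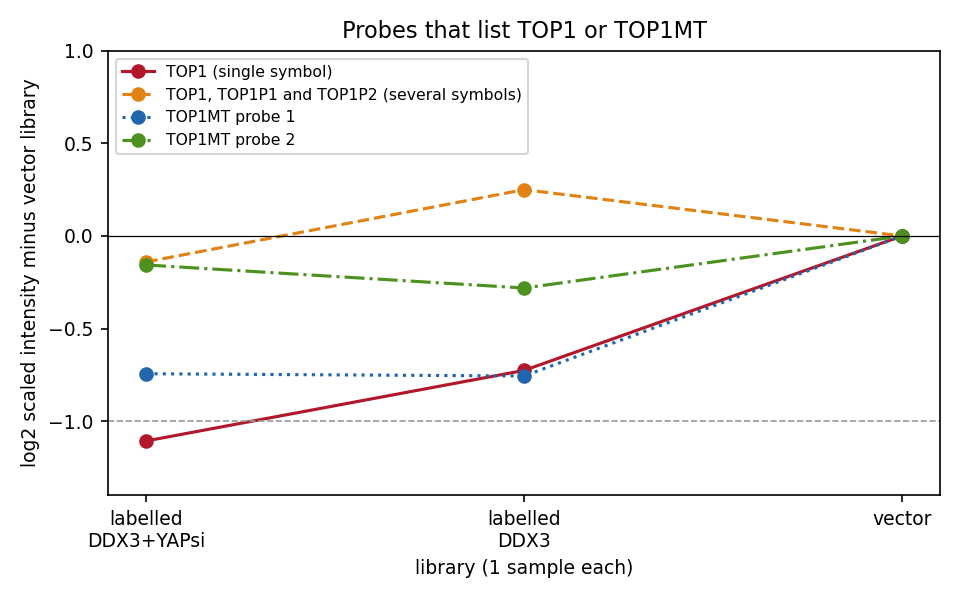
Log2 scaled intensity minus that of the vector library for the single-symbol TOP1 probe, the probe listed for TOP1 and its pseudogenes, and both TOP1MT probes, by library (1 sample each; the dashed line marks 2-fold lower). The TOP1 probe reaches -1.11 in the DDX3+YAPsi-labelled library, while the probe of several symbols lies at -0.14.

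TOP1MT, the mitochondrial relative of TOP1 and no member, also had probes that differed in size. One (PH_hs_0016810) had 2832 in the DDX3+YAPsi-labelled library, 2808 in the DDX3-labelled library and 4742 in the vector library, a difference of -0.74 for DDX3+YAPsi minus vector and -0.76 for DDX3 minus vector. The other (PH_hs_0042138) had 6732, 6176 and 7503 in the same libraries, with -0.16 and -0.28. Both were below the vector library in both plasmid libraries, and neither was past 2-fold.

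The stretch before the start of TOP1 is shown here because TOP1 carries the largest difference of the set, and those of TOP2A and TYMS because both encode drug targets of proliferating cells and lay within 1.5-fold in every comparison. Each is the 250 bases before the listed start in RefSeq (GRCh38.p14), 5′ to 3′, at chr20:41028572-41028821 on the plus strand for TOP1, chr17:40417897-40418146 on the minus strand for TOP2A and chr18:657403-657652 on the plus strand for TYMS. Capitals mark matches on either strand to the CCAAT box (CCAAT), the cell cycle homology region (TTTGAA) or an E2F motif (TTTCCCGC, TTTCGCGC, TTTGGCGC or TTTGCCGC).
TOP1: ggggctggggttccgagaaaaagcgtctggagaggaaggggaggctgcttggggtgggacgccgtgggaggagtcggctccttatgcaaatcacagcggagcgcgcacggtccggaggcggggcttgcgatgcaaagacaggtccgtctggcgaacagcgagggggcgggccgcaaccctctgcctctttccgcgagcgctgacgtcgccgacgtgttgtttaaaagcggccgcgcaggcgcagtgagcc
TOP2A: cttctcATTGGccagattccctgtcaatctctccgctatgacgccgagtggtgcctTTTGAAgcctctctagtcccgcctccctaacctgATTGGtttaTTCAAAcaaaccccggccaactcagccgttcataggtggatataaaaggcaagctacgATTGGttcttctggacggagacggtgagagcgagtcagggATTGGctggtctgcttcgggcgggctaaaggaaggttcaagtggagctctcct
TYMS: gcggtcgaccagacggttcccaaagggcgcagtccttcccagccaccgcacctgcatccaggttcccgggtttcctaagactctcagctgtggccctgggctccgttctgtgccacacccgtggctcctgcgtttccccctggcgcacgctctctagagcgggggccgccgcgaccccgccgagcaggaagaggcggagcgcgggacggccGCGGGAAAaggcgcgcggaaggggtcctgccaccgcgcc

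The TOP1 window held none of these motifs and was 66.8% G or C. That of TOP2A held 4 CCAAT boxes and 2 TTTGAA matches, and that of TYMS held 1 E2F match. Among 35116 RefSeq windows of the same length, 32.0% held a CCAAT box, 13.3% TTTGAA and 2.79% one of the E2F words. All 10 members had such a window, 14 windows in all. The TEAD motif GGAATG, the core that the DNA-binding partners of YAP1 recognise, was in none of the members' windows and in 11.9% of all windows. A match is a description of letters and no match says only that these letters are not in the window.

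TOP2A, the type II enzyme of dividing cells and a target of etoposide and doxorubicin, had scaled intensities of 55341 in the DDX3+YAPsi-labelled library, 64901 in the DDX3-labelled library and 64562 in the vector library. The DDX3+YAPsi-labelled library was the lowest and the other libraries were nearly equal, with differences of -0.22 for DDX3+YAPsi minus vector, -0.23 for DDX3+YAPsi minus DDX3 and 0.01 for DDX3 minus vector. TOP2B, the type II enzyme that is also present in cells that do not divide, had 4699, 5313 and 4973 in the same libraries. Its differences were -0.08, -0.18 and 0.10, so the DDX3+YAPsi-labelled library was again the lowest, by less than for TOP2A.

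TOP3A, a type IA enzyme that works with the BLM helicase to separate joined DNA molecules, had 2 probes that ran close together. The first (PH_hs_0025390) had 1171 in the DDX3+YAPsi-labelled library, 1219 in the DDX3-labelled library and 1311 in the vector library, and the second (PH_hs_0033363) had 1223, 1343 and 1330. Their differences for DDX3+YAPsi minus vector were -0.16 and -0.12, a gap of 0.042 between them. TOP3B, the type IA enzyme that also acts on RNA, had 255, 300 and 336 in the same libraries, all below the floor, so no difference is given for it as measured. The measured topoisomerase probes, TOP1MT included, numbered 7, and 7 of 7 lay below 0 for DDX3+YAPsi minus vector, with a median of -0.16 beside 0.02 over all measured probes, of which 52.4% lay above 0. The count includes TOP1, whose value was known when the set was chosen. For DDX3+YAPsi minus DDX3 5 of the 7 lay below 0 and for DDX3 minus vector 4 of 7, while 52.2% and 48.8% of all measured probes lay above 0 in these comparisons. Without TOP1, the probes of TOP2A, TOP2B and TOP3A and the second TOP1MT probe lay between -0.22 and -0.08 for DDX3+YAPsi minus vector, inside the SD of 0.35 over all measured probes, and the first TOP1MT probe lay outside it at -0.74.

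**Figure D3:**
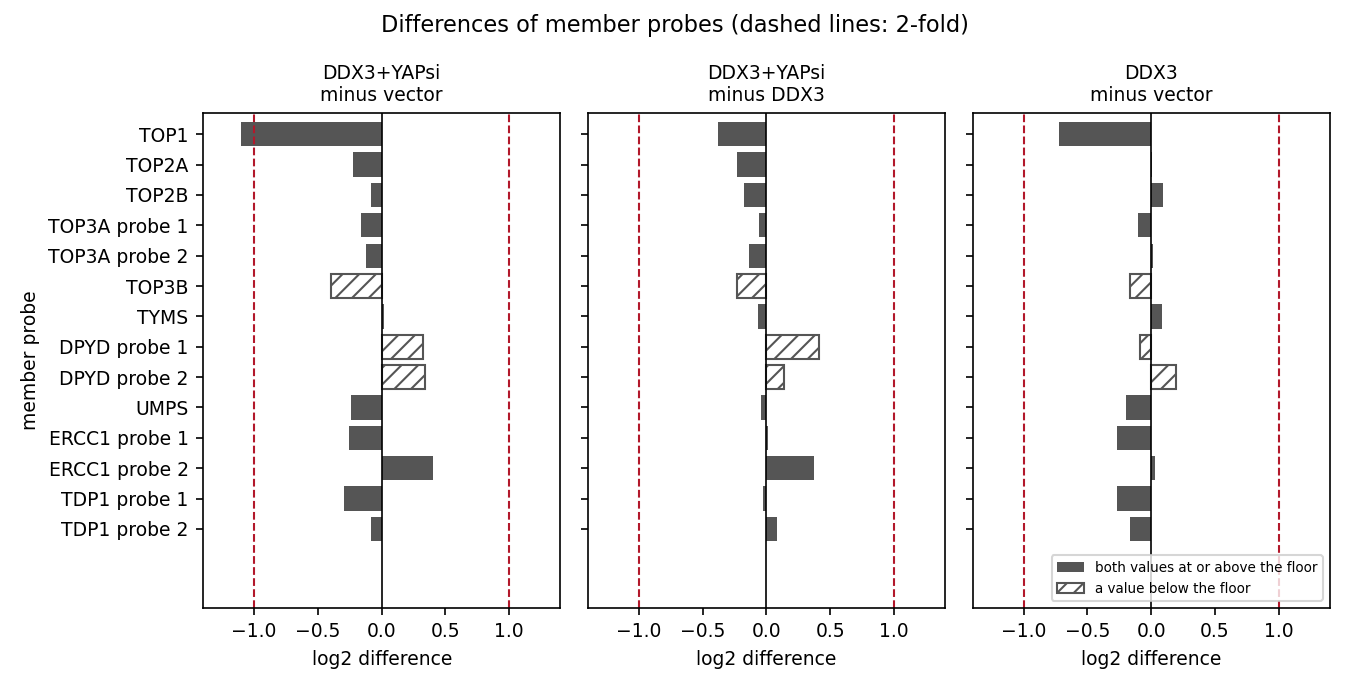
Log2 difference of each member probe in the 3 comparisons, with 2-fold marked by dashed lines. Filled bars have both values at or above the floor and hatched bars do not, and the bar of TOP1 for DDX3+YAPsi minus vector at -1.11 is the 1 bar past a dashed line.

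Among the member genes of fluoropyrimidine drugs, TYMS and UMPS lay within 1.5-fold in every comparison, and DPYD was below the floor. TYMS encodes thymidylate synthase, which makes the thymidine nucleotide and is blocked by a metabolite of fluorouracil. It had 36618 in the DDX3+YAPsi-labelled library, 38266 in the DDX3-labelled library and 36117 in the vector library, with differences of 0.02 for DDX3+YAPsi minus vector, -0.06 for DDX3+YAPsi minus DDX3 and 0.08 for DDX3 minus vector. UMPS, which makes uridine monophosphate and can attach the ribose phosphate to fluorouracil, had 666, 687 and 787 in the same libraries. Both plasmid libraries were below the vector library, and the differences were -0.24, -0.04 and -0.20.

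DPYD, the first and rate-limiting enzyme of pyrimidine breakdown, degrades most of a dose of fluorouracil in the liver. Its probes had 332 and 44.3 in the DDX3+YAPsi-labelled library, 250 and 40.2 in the DDX3-labelled library, and 265 and 35.1 in the vector library. All lay below the floor, and a difference between such values is not read as one of expression.

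ERCC1, the partner of the XPF nuclease that cuts beside platinum adducts, had 2 probes that went opposite ways. The first (PH_hs_0025459) had 1609 in the DDX3+YAPsi-labelled library, 1595 in the DDX3-labelled library and 1923 in the vector library, a difference of -0.26 for DDX3+YAPsi minus vector. The second (PH_hs_0047746) had 1224, 943 and 926, a difference of 0.40 in the same comparison, so that the DDX3+YAPsi-labelled library was the highest by this probe. The gap of 0.66 lies above the median gap of 0.26 for genes with 2 measured probes and below their 95th percentile of 0.82. The mean of both ERCC1 probes was 0.07.

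TDP1, which frees the TOP1 tyrosine from a broken DNA end, was lower in both plasmid libraries by both probes, by small amounts. The first (PH_hs_0022461) had 1352 in the DDX3+YAPsi-labelled library, 1381 in the DDX3-labelled library and 1662 in the vector library. The second (PH_hs_0047855) had 492, 465 and 521. Differences for DDX3+YAPsi minus vector were -0.30 and -0.08, and those for DDX3+YAPsi minus DDX3 were -0.03 and 0.08.

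Taking the 11 measured member probes, 9 lay below 0 for DDX3+YAPsi minus vector, 8 for DDX3+YAPsi minus DDX3 and 6 for DDX3 minus vector. Their medians were -0.16, -0.06 and -0.11, beside medians over all measured probes of 0.02, 0.02 and -0.01. With the floor at the 75th percentile, which left only TOP2A, TOP2B and TYMS, the medians were -0.08, -0.18 and 0.08, so the last changed sign. Leaving TOP1 out, the medians of the 10 others were -0.14, -0.05 and -0.05, and each of the 10 lay between -0.30 and 0.40 in the first comparison. Some of these signs rest on the scaling. With no scaling all 11 lay below 0 in every comparison, beside median log2 differences over all probes of -0.60, -0.45 and -0.16. With arrays brought to a common median 10, 10 and 8 of 11 lay below 0. With quantile normalization, and likewise with loess, 9, 10 and 6 of 11 did.

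**Figure D4:**
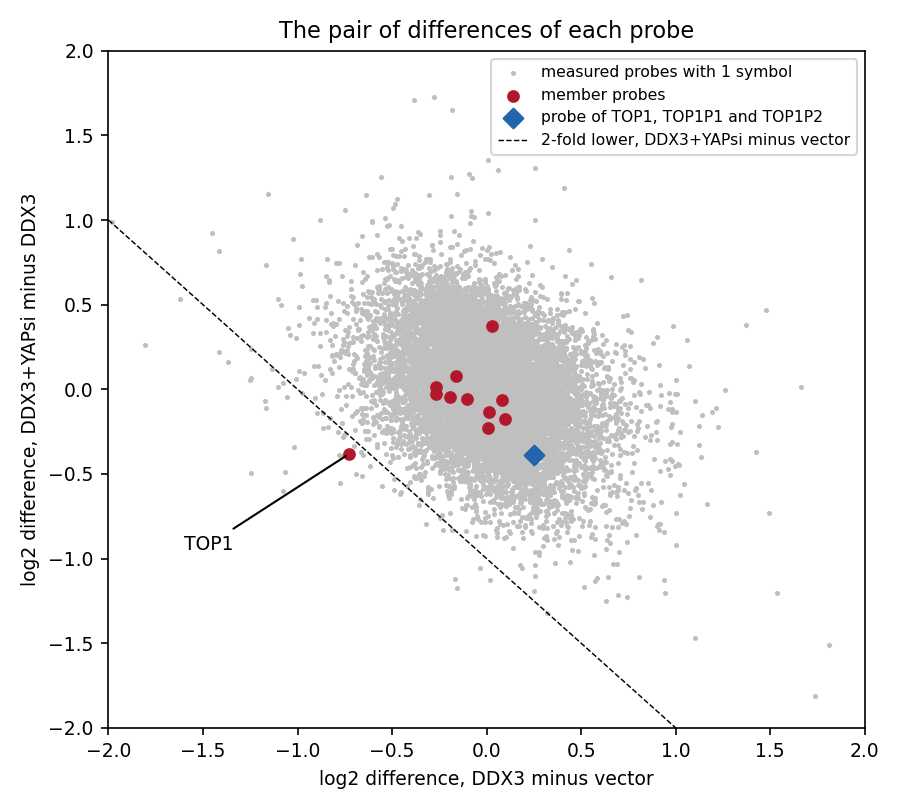
Log2 difference DDX3+YAPsi minus DDX3 (vertical) against DDX3 minus vector (horizontal) for 12940 probes above the floor in all libraries, 3 of which lie outside the axes. The differences share the DDX3-labelled library, and TOP1 at -0.73 and -0.38 is the member probe beyond the dashed 2-fold line, while the probe of TOP1 and its pseudogenes lies at 0.25 and -0.39.

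The probes most like TOP1 were sought by the distance between their pair of differences (DDX3 minus vector and DDX3+YAPsi minus DDX3) and that of TOP1, over 3 libraries. The search covered probes with 1 symbol above the floor in all libraries. LOC, open reading frame, KIAA, FAM, antisense and clone-based symbols were passed over. The nearest of the rest were those of CLDN12, a claudin of cell junctions, NCAPH2, a condensin subunit, and RBM19. Next came HNRNPCL1, the transcription factor NRF1 and CDC25C, a phosphatase of mitotic entry. All 6 lay at distances of 0.043 to 0.11. Their differences for DDX3+YAPsi minus vector ran from -1.17 for RBM19 to -1.03 for HNRNPCL1. That these lie near the value of TOP1 follows from the choice, since the pair of differences adds up to this comparison. Other measured probes of these genes stood elsewhere in that comparison. The other CLDN12 probe was at -0.31, the other NCAPH2 probe at -0.19, the other NRF1 probe at 0.08, the 3 other RBM19 probes between 0.07 and 0.63, and the 2 other measured HNRNPCL1 probes at -0.36 and -0.45. CDC25C had 1 probe.

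The genes beside TOP1 on chromosome 20 were looked at as well, with their order taken from RefSeq (GRCh38.p14). Of the 4 protein-coding genes on each side, PPP1R16B (0.26), FAM83D (0.08), ZHX3 (0.42) and LPIN3 (0.28, by 1 of its probes) were measured for DDX3+YAPsi minus vector, and none of these lay below 0 as scaled. With no scaling all of them did, at -0.48, -0.66, -0.32 and -0.46 in the same order. DHX35 had 265 in the DDX3+YAPsi-labelled library and 315 in the DDX3-labelled library, both below the floor, and 488 in the vector library.

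Lists of related genes were described in the same way, and with no scaling every measured probe of every list lay below 0 for DDX3+YAPsi minus vector. Over all measured probes as scaled, 0.779% were past 2-fold in this comparison and 52.4% lay above 0. A count of 0 past 2-fold in a list is near that share, so nothing is read from it. Of the genes that repair trapped topoisomerases or work with them, 34 probes of 28 genes were measured for DDX3+YAPsi minus vector, 25 below 0 and 9 above, and 0 past 2-fold. The median was -0.10. POLB, the polymerase of base excision repair, was lowest at -0.79 by one probe and -0.40 by another, and TDRD3, the TOP3B partner, was at -0.57. TDP2, which frees type II enzymes from DNA, was at -0.37, while MUS81, an endonuclease subunit, was highest at 0.54. SLFN11, known as a marker of sensitivity to TOP1 inhibitors, had 460, 231 and 417 by one probe in the DDX3+YAPsi-labelled library, the DDX3-labelled library and the vector library. In that probe the DDX3-labelled library alone was below the floor, and the other probe lay below it in every library.

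Of fluoropyrimidine metabolism and thymidylate supply, 41 probes were measured in that comparison, 27 below 0 and 0 past 2-fold, with a median of -0.16. DCK, the deoxycytidine kinase, was at -0.69 and -0.04 by its 2 probes, and UNG was at -0.60 and -0.13. MTHFD1, a folate enzyme, was at -0.62, and SLC19A1, the reduced folate carrier, was highest at 0.58, with 12990 in the DDX3+YAPsi-labelled library, 10840 in the DDX3-labelled library and 8698 in the vector library. SLC19A1 was thus higher in both plasmid libraries. TK1 (0.13), RRM1 (-0.38), RRM2 (-0.04 and 0.15) and the uridine phosphorylase UPP1 (0.26) were within 1.5-fold.

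Nucleotide excision repair probes had the lowest median of the 7 lists, -0.25 for DDX3+YAPsi minus vector, with 27 of 34 below 0 and 0 past 2-fold. MNAT1, a subunit of the CDK-activating kinase of TFIIH, was at -0.82 and -0.50 by its 2 probes, and ERCC8, which acts in transcription-coupled repair, was at -0.70. The 3 probes of DDB1, a damage-binding subunit, stood at -0.51, -0.45 and -0.34. UVSSA, another transcription-coupled repair gene, was highest at 0.61. ERCC1 is in this list, and its probes lie on both sides of 0 as above. With no scaling the median was -0.99.

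Platinum transport and conjugation genes had a median of -0.10 with 8 of 12 measured probes below 0, from the copper pump ATP7B at -0.47 to GCLM, a subunit of the glutathione-making enzyme, at 0.65. Genes of irinotecan activation, conjugation and efflux had a median of -0.05 with 5 of 10 below 0. The lowest probe, at -0.57, was for GUSB. CES2, the carboxylesterase that turns irinotecan into SN-38 in the gut, had probes at -0.40 and 0.51, and ABCG2, an efflux pump for SN-38, had probes at -0.56 and 0.21. In both genes the probes thus lay on opposite sides of 0. None of either list was past 2-fold.

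Proliferation genes, which include partners of TOP2A and TYMS in the cell cycle, had 17 of 26 measured probes below 0 for DDX3+YAPsi minus vector, with a median of -0.16 and 0 past 2-fold. PCNA, the sliding clamp of replication, was lowest at -0.71, while MKI67, the gene of the Ki-67 antigen, was highest at 0.61. For DDX3+YAPsi minus DDX3 21 of 26 lay below 0, with a median of -0.08, while 52.2% of all measured probes lay above 0. For DDX3 minus vector 15 of 26 lay above 0, beside 48.8% of all measured probes. The median was 0.07, or -0.12 with no scaling. Whether these values had a part in those of TOP2A was not tested.

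**Figure D5:**
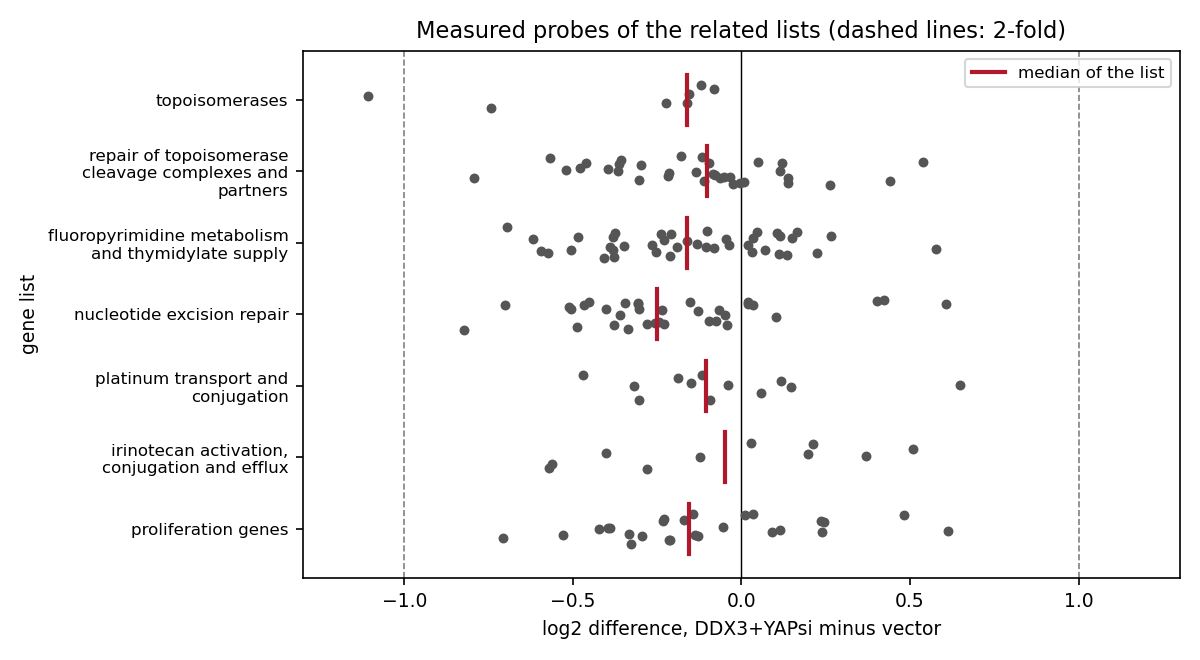
Log2 difference DDX3+YAPsi minus vector of each measured probe in 7 lists of related genes (points, spread vertically for legibility), with the median of each list in red and 2-fold dashed. TOP1 at -1.11 is the 1 point past 2-fold, and the medians run from -0.25 for nucleotide excision repair to -0.05 for irinotecan handling.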

How the data were processed

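Intensity was measured on 1-colour Cy5 arrays in 3 samples, per the labels. The authors deposited linear intensity for each probe, as the range of the values shows. Their background correction, scaling, flags and build were not stated there. The deposited 75th percentiles were 1710 for DDX3+YAPsi, 2495 for DDX3 and 2856 for vector, so each array was multiplied by 1.35, 0.922 or 0.806 to a common 75th percentile and log2 was taken. The median log2 difference over all probes was then still 0.14, 0.09 and 0.04 in the 3 comparisons. Of 31741 probes, 24658 had 1 symbol in the platform annotation, which can be old, 1002 had several and 6081 had none. The floor was the 50th percentile of each array, and a probe was past 2-fold at a log2 difference of at least 1 with both values at the floor or above. Named genes were all members, the 6 probes nearest to TOP1 once the symbols named above were passed over, and 4 genes on each side of it. Of each list, some of the 4 probes per comparison with the largest differences were named, not all. Other genes of the lists, such as TDP2, SLFN11, TK1, RRM1, RRM2 and UPP1, were named after their values were seen. The members and lists were chosen with earlier results of these data known. Python 3.11.15, pandas 2.3.3 and statsmodels 0.14.6 were used, and the steps were tested on simulated data. Alternatives were other scalings, floors, a 1.5-fold threshold and gene values.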

Additional observations from a re-analysis of the deposited data

How the results depend on the processing

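For TOP1 in DDX3+YAPsi minus vector, the probe listed with its pseudogenes gave -0.14 and the mean of both probes -0.62, and for DDX3 minus vector these gave 0.25 and -0.24. Both settings were chosen after seeing the data. With no scaling TOP1 stood at -1.85 for DDX3+YAPsi minus vector and -0.93 for DDX3+YAPsi minus DDX3, the medians of the member probes in these comparisons were -0.90 and -0.60, and 2 member probes were past 2-fold in the first, TOP1 and a TDP1 probe at -1.04. With the floor at the 75th percentile 0 member probes were past 2-fold there, since TOP1 was no longer measured, and the median of the members for DDX3 minus vector was 0.08, against -0.11 with the floor at the array median. At 1.5-fold, 1 member probe was past the threshold for DDX3 minus vector. A common median, quantile normalization, loess, the other floors and gene values moved none of the TOP1 differences, member counts or member medians to which they were applied by more than the limits used, 1 SD over all measured probes for a difference and 1.5 times for a count. Over all probes, DDX3+YAPsi minus vector had 52 higher and 50 lower past 2-fold, 28 and 92 with a common median, and 3 and 2718 with no scaling. Of the other member probe differences, 26 of 39 moved past that limit with no scaling and 0 with the other scalings. No replicate could be left out, as each group has 1 sample.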
